A study of Mus musculus with 6 samples.

Results

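The genes described here present antigens or prepare them for presentation: the mouse major histocompatibility complex (MHC) genes, whose symbols start with *H2-*, and 13 genes of their light chain, peptide supply, transport, and control (*B2m*, *Cd74*, *Ciita*, *Nlrc5*, *Tap1*, *Tap2*, *Tapbp*, *Psmb8*, *Psmb9*, *Psmb10*, *Psme1*, *Psme2*, and *Ubd*). They were chosen by symbol, with earlier results of these data known. The array carried 34 of the 50 *H2-* symbols of the annotation, which gave 47 genes of the 20630 gene symbols on the array. By role, these were 24 class I heavy chains and *B2m*, 4 class II chains, 6 genes that load or edit class II, 3 genes that transport peptide or load it on class I, 3 catalytic subunits of the immunoproteasome, 2 subunits of the proteasome activator PA28, the regulators *Nlrc5* and *Ciita*, the ubiquitin-like modifier *Ubd*, and *H2-Ke6*, a hydroxysteroid dehydrogenase gene that carries an *H2-* symbol for its position in the complex. Expression was measured in interscapular brown adipose tissue (iBAT) of 3 control and 3 *ob/ob* mice, with 1 single-dye Agilent array per sample. All 6 samples came, by their labels, from male C57BL/6 mice aged 16 weeks. The *ob* mutation inactivates the leptin gene in every cell of the animal, so the mice are obese from early life and no cell type is singled out. The labels give no genotype of the controls beyond that word, no diet, and no statement on whether mice were pooled, so p values measure the spread between these samples, which may be partly technical.

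Class I molecules sit on nearly all nucleated cells. They consist of a heavy chain and β2-microglobulin, and they show peptides that the proteasome cuts in the cytosol and the TAP transporter carries into the endoplasmic reticulum. Class II molecules are pairs of α and β chains on macrophages, dendritic cells, and B cells, which load peptides of ingested protein with the help of the invariant chain (*Cd74*) and the DM and DO proteins. Interferon-γ raises both classes, through NLRC5 for class I and CIITA for class II, and also replaces the standard catalytic subunits of the proteasome with those of the immunoproteasome. In adipose tissue, immune cells of the stroma carry most class II, and adipocytes can carry both classes.

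Values are the log2 signal of a gene's brightest probe after quantile normalization, so that a difference of 1 unit is a 2-fold difference. Before the results on single genes, 2 arrays have to be set apart. Over all probes tested, control 3 correlated more closely with *ob/ob* 1 and 2 (Spearman's rho of 0.915 and 0.944) than with control 1 and 2 (0.642 and 0.730), and *ob/ob* 3 correlated more closely with control 1 (0.858) than with *ob/ob* 1 and 2 (0.573 and 0.488). The labels were kept as given, and whether those of these 2 arrays were exchanged or the dissected tissue differed was not tested, so each group mean and difference holds only for the arrays as labelled. The arrays came from 4 scans, and only 1 scan, of control 1, control 3, and *ob/ob* 1, held both groups. *Lep* had a log2 signal of 5.74, 4.57, 5.30 across controls 1 to 3 and 6.68, 5.83, 9.33 across *ob/ob* 1 to 3. Its transcript is not deleted in *ob/ob* mice, so the presence of a signal checks no label. The lowest *ob/ob* array was 0.085 units above the highest control, and whether the level of *Lep* bears on the labels was not tested. *Ucp1*, which marks brown adipocytes, was detected on all 6 arrays. Of 19007 genes tested, none passed an adjusted p under 0.05 in limma.

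The upstream sequences of 6 members are shown here because 4 of these genes separated the groups (*H2-Q4*, *H2-Eb2*, *Ubd*, and *H2-T3*) and the other 2 did not, namely the classical class I gene *H2-K1* and *H2-Eb1*, the class II neighbor of *H2-Eb2*. Each is the 250 bases before the RefSeq transcript start on chromosome 17 of assembly GRCm38.p6, read 5′ to 3′ on the gene's strand, and capitals mark letters that match one of 5 short motifs on either strand. The motifs were the interferon regulatory factor (IRF) type element, as GAANNGAAA or GAAANNGAA, which can overlap, the core of the class II X box GCAACNGAT, the CCAAT box CCAAT, the NF-kB element GGGATTNCC, and the GAS element TTCNNNGAA. They were chosen with the sequences in view.
*H2-K1*, chr17:34000348-34000597 (minus strand): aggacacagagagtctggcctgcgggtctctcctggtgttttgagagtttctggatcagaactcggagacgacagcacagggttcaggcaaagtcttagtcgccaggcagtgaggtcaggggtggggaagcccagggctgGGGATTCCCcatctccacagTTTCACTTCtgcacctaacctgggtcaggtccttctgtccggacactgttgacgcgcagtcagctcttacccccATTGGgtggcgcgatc
*H2-Q4*, chr17:35379367-35379616 (plus strand): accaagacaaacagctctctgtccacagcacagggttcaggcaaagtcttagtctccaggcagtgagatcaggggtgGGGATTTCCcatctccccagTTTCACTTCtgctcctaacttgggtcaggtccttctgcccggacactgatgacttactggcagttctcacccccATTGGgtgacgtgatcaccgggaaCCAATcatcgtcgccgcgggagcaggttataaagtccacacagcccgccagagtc
*H2-T3*, chr17:36190152-36190401 (minus strand): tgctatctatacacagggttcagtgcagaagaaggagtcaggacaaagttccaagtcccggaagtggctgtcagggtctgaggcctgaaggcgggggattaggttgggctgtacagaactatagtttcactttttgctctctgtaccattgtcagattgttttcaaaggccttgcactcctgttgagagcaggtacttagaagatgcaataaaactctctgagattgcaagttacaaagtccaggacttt
*H2-Eb1*, chr17:34305617-34305866 (plus strand): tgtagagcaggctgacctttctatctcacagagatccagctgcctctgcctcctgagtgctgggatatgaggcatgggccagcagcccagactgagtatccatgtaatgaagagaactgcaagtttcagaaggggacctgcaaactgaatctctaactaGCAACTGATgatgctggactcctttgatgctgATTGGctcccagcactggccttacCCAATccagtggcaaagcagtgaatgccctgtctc
*H2-Eb2*, chr17:34325425-34325674 (plus strand): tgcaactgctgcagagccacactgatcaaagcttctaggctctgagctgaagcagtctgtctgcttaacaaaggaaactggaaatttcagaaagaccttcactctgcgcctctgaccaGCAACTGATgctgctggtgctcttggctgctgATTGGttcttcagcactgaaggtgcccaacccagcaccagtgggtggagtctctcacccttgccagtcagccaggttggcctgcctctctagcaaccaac
*Ubd*, chr17:37193642-37193891 (plus strand): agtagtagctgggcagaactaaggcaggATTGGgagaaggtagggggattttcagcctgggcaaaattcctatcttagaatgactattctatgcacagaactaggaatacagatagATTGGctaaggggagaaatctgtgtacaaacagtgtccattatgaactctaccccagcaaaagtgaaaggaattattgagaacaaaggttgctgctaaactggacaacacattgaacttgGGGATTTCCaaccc
The classical class I gene *H2-K1* and the class Ib gene *H2-Q4* carried the same pair, an NF-kB element followed by an IRF-type element on the other strand, 110 and 90 bases before the start of *H2-K1* and 173 and 153 bases before the start of *H2-Q4*. *H2-Eb1* and *H2-Eb2* shared the X box letters, 91 and 132 bases before the start, each followed by a CCAAT box on the other strand. The *Ubd* window held an NF-kB element 14 bases before the start. In the *H2-T3* window no motif matched, which says only that these letters are not in this stretch. Among all 32851 windows of this length, 12.5% held an IRF-type element of either form, 0.35% the X box, 33.8% CCAAT, 0.822% the NF-kB element, and 7.02% the GAS element. Of the 37 members with a window, 9 held an IRF-type element, all of them among the 20 class I heavy chains and *B2m* with a window (*B2m*, *H2-D1*, *H2-K1*, *H2-M3*, *H2-Q10*, *H2-Q4*, *H2-Q6*, *H2-Q7*, and *H2-T23*). The NF-kB letters were in 6 members (*H2-D1*, *H2-K1*, *H2-Q4*, *H2-Q6*, *H2-Q7*, and *Ubd*), CCAAT in 30, the GAS element in 4, and the X box in 2. Members were counted as genes with a match in any of their windows, whereas the shares of all windows count single windows, so the 2 are unlike units. The class I windows are copies of one another by descent, so their matches are not independent, and a match is no evidence of binding.

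Of the 47 members, 46 were detected on enough arrays to be tested, and 41 were detected on all 6. *H2-M10.1* was not well above background on any array. None of the 46 passed an adjusted p under 0.05 in limma (lowest adjusted p = 1.0), as for all genes (0.0%). At an unadjusted limma p under 0.05, 6 members were higher in *ob/ob* iBAT (13.0%, compared with 2.03% of all genes tested) and 1 was lower (2.17%, compared with 1.68%). All 3 *ob/ob* arrays lay above all 3 control arrays for the same 6 members (13.0%, compared with 3.76% of all genes), which were *Ubd*, *H2-Eb2*, *H2-Q4*, *H2-M1*, *H2-Q1*, and *H2-M10.2*. All 3 *ob/ob* arrays lay below the controls for *H2-T3* and *Psme1* (4.35%, compared with 4.19%). Thus the share of separated members was above the background upward and close to it downward. This split depended on the scaling: with arrays scaled to their 75th percentile in place of quantile normalization, 2 members separated upward and 5 downward, where 2.33% and 4.41% of all genes did. In bulk tissue, fewer cells of a type and less RNA per cell cannot be told apart, for these and all values that follow.

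**Figure D1:**
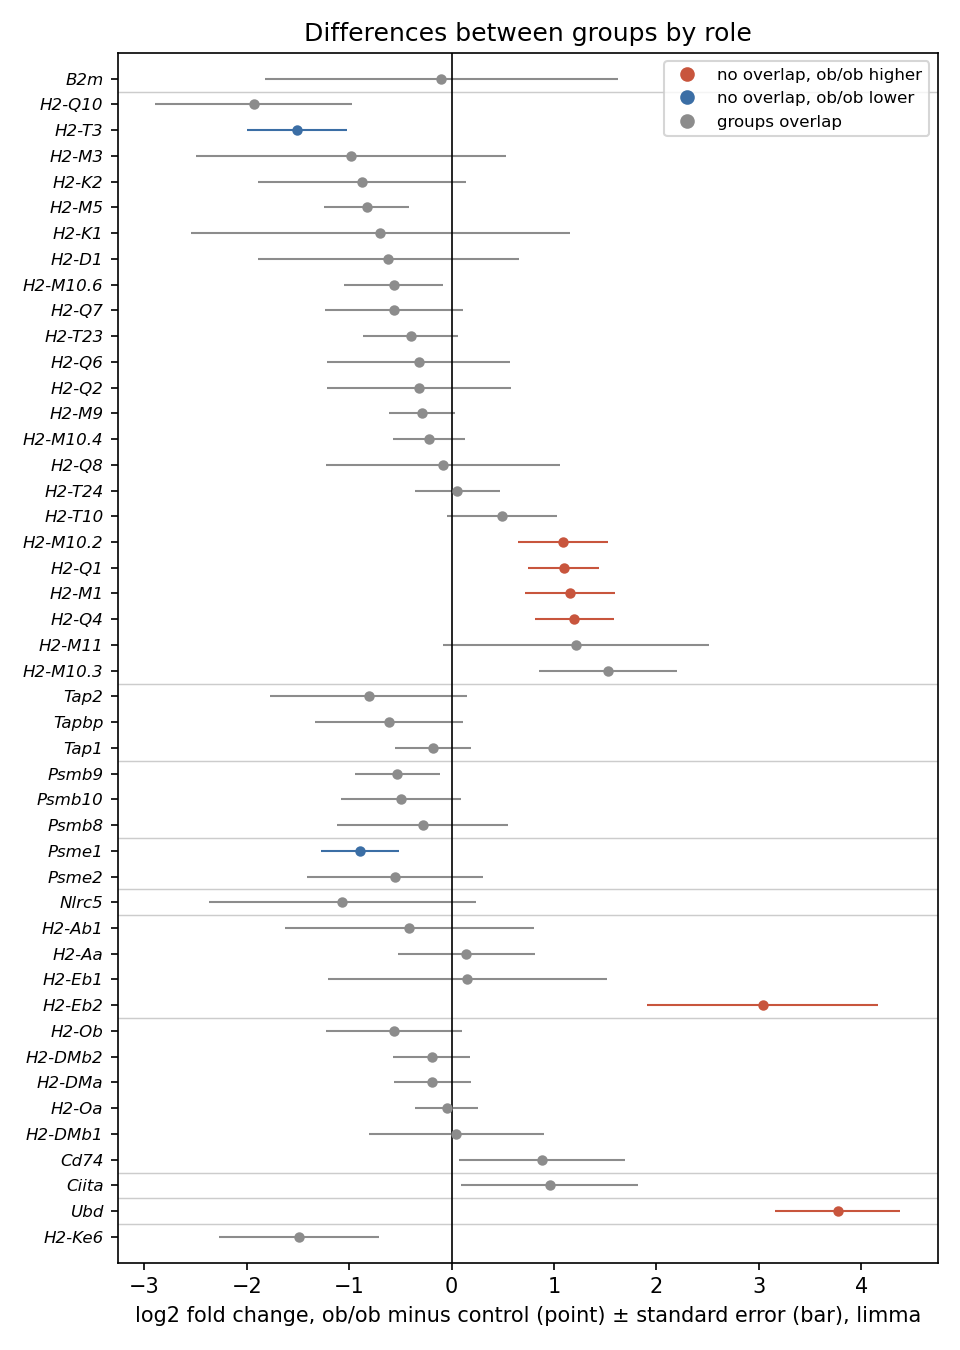
Difference between *ob/ob* and control iBAT for the 46 members tested, grouped by role from top to bottom (*B2m*, class I heavy chains, peptide loading, immunoproteasome, PA28, *Nlrc5*, class II chains, class II loading, *Ciita*, *Ubd*, and *H2-Ke6*). Points are log2 fold changes and bars are limma standard errors (n = 3 per group). The 6 red genes had all *ob/ob* arrays above all controls and the 2 blue genes had all below, while most other bars cross 0.

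*Ubd* encodes FAT10, a ubiquitin-like protein that marks proteins for the proteasome and is induced by interferon-γ and tumor necrosis factor. Its log2 signal was 5.34, 5.10, 4.40 across controls 1 to 3 and 8.90, 7.56, 9.68 across *ob/ob* 1 to 3. Every *ob/ob* array was at least 2.22 units above every control array, including control 3 and *ob/ob* 3, which went against their labels for many other genes. The mean was 4.95 ± 0.49 (SD, n = 3) in control iBAT and 8.71 ± 1.07 with *ob/ob*, which gave a log2 fold change of 3.77 ± 0.61 (SE; 13.6-fold; limma, adjusted p = 1.0). The exact permutation test gave p = 0.1, the smallest that 3 against 3 allows, and gave the same p for each separated gene below. In all 17 alternatives the unadjusted p of *Ubd* stayed under 0.05, with log2 fold changes between 2.43, with normexp background correction, and 4.35. Within the 1 scan that held both groups, *ob/ob* 1 was 4.03 units above the mean of control 1 and 3.

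*H2-Q4*, a nonclassical class I heavy chain, had a log2 signal of 13.17, 13.14, 14.11 across controls 1 to 3 and 14.65, 14.56, 14.79 across *ob/ob* 1 to 3. The mean was 13.47 ± 0.55 (SD, n = 3) in control and 14.67 ± 0.11 in *ob/ob* iBAT, and control 3 was the control nearest to the *ob/ob* arrays. The log2 fold change was 1.20 ± 0.39 (limma, adjusted p = 1.0). *H2-Q1*, a neighbor of the same Q region, had a log2 signal of 5.31, 4.79, 5.01 across controls 1 to 3 and 5.90, 5.98, 6.52 across *ob/ob* 1 to 3. The gap between the groups was 0.59 units, and the log2 fold change was 1.10 ± 0.35 (limma, adjusted p = 1.0).

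The M region holds class I genes that are best known from the vomeronasal organ. *H2-M1* had a log2 signal of 4.37, 4.01, 4.64 across controls 1 to 3 and 6.01, 5.71, 4.77 across *ob/ob* 1 to 3, with a gap between the groups of only 0.13 units and a log2 fold change of 1.16 ± 0.44 (limma, adjusted p = 1.0). *H2-M10.2* read 4.30, 3.53, 4.94 across controls 1 to 3 and 5.57, 5.31, 5.16 across *ob/ob* 1 to 3, and 1 of the control arrays was not well above background. Its log2 fold change was 1.09 ± 0.44 (limma, adjusted p = 1.0). Both genes overlapped between groups when arrays were scaled to the 75th percentile, where the log2 fold changes were 0.68 and 0.66, and with normexp these were 0.42 and 0.31.

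*H2-Eb2*, a class II β chain gene next to *H2-Eb1*, had a log2 signal of 4.33, 1.86, 6.48 across controls 1 to 3 and 7.77, 7.37, 6.63 across *ob/ob* 1 to 3. Control 2 stood far below the other controls, and only 2 of the 3 control arrays were well above background. The log2 fold change was 3.04 ± 1.13 (limma, adjusted p = 1.0), or 1.85 without control 2, 1.23 with normexp, and 4.48 without control 3 and *ob/ob* 3. The highest control was 0.15 units below the lowest *ob/ob* array, and the groups overlapped with scaling to the 75th percentile.

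Downward, *H2-T3*, which encodes the thymus leukemia antigen, a class Ib molecule of the intestinal epithelium that binds CD8αα, had a log2 signal of 9.22, 9.20, 7.74 across controls 1 to 3 and 7.11, 7.14, 7.37 across *ob/ob* 1 to 3. The *ob/ob* arrays and control 3 lay close together, and control 1 and 2 lay above them. The log2 fold change was −1.51 ± 0.49 (limma, adjusted p = 1.0). *Psme1*, the α subunit of PA28, read 9.69, 10.22, 10.16 across controls 1 to 3 and 9.41, 9.38, 8.59 across *ob/ob* 1 to 3. Its log2 fold change was −0.90 ± 0.38 (limma, adjusted p = 1.0), *ob/ob* 3 was the lowest array, and control 3 lay next to control 2.

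In the scan of control 1, control 3, and *ob/ob* 1, the differences of the other separated genes were 1.02 (*H2-Q4*), 0.74 (*H2-Q1*), 1.51 (*H2-M1*), 0.95 (*H2-M10.2*), 2.37 (*H2-Eb2*), −1.37 (*H2-T3*), and −0.51 (*Psme1*) log2 units. Each of the 8 separated genes kept its direction in every alternative in which it was tested. That direction could have turned only with scaling to the 75th percentile, normexp, the authors' values, or the scan as a block. The other alternatives omit arrays, which cannot turn groups that do not overlap, or leave these log2 fold changes as they were. *Ubd*, *H2-Q1*, *H2-T3*, and *Psme1* kept their separation in all 13 alternatives in which overlap was read. The other 4 lost it with scaling to the 75th percentile, *H2-M10.2* also with normexp. Only that scaling, normexp, and the authors' values could have broken a separation. The remaining alternatives either omit arrays or leave the values of these genes as they were.

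**Figure D2:**
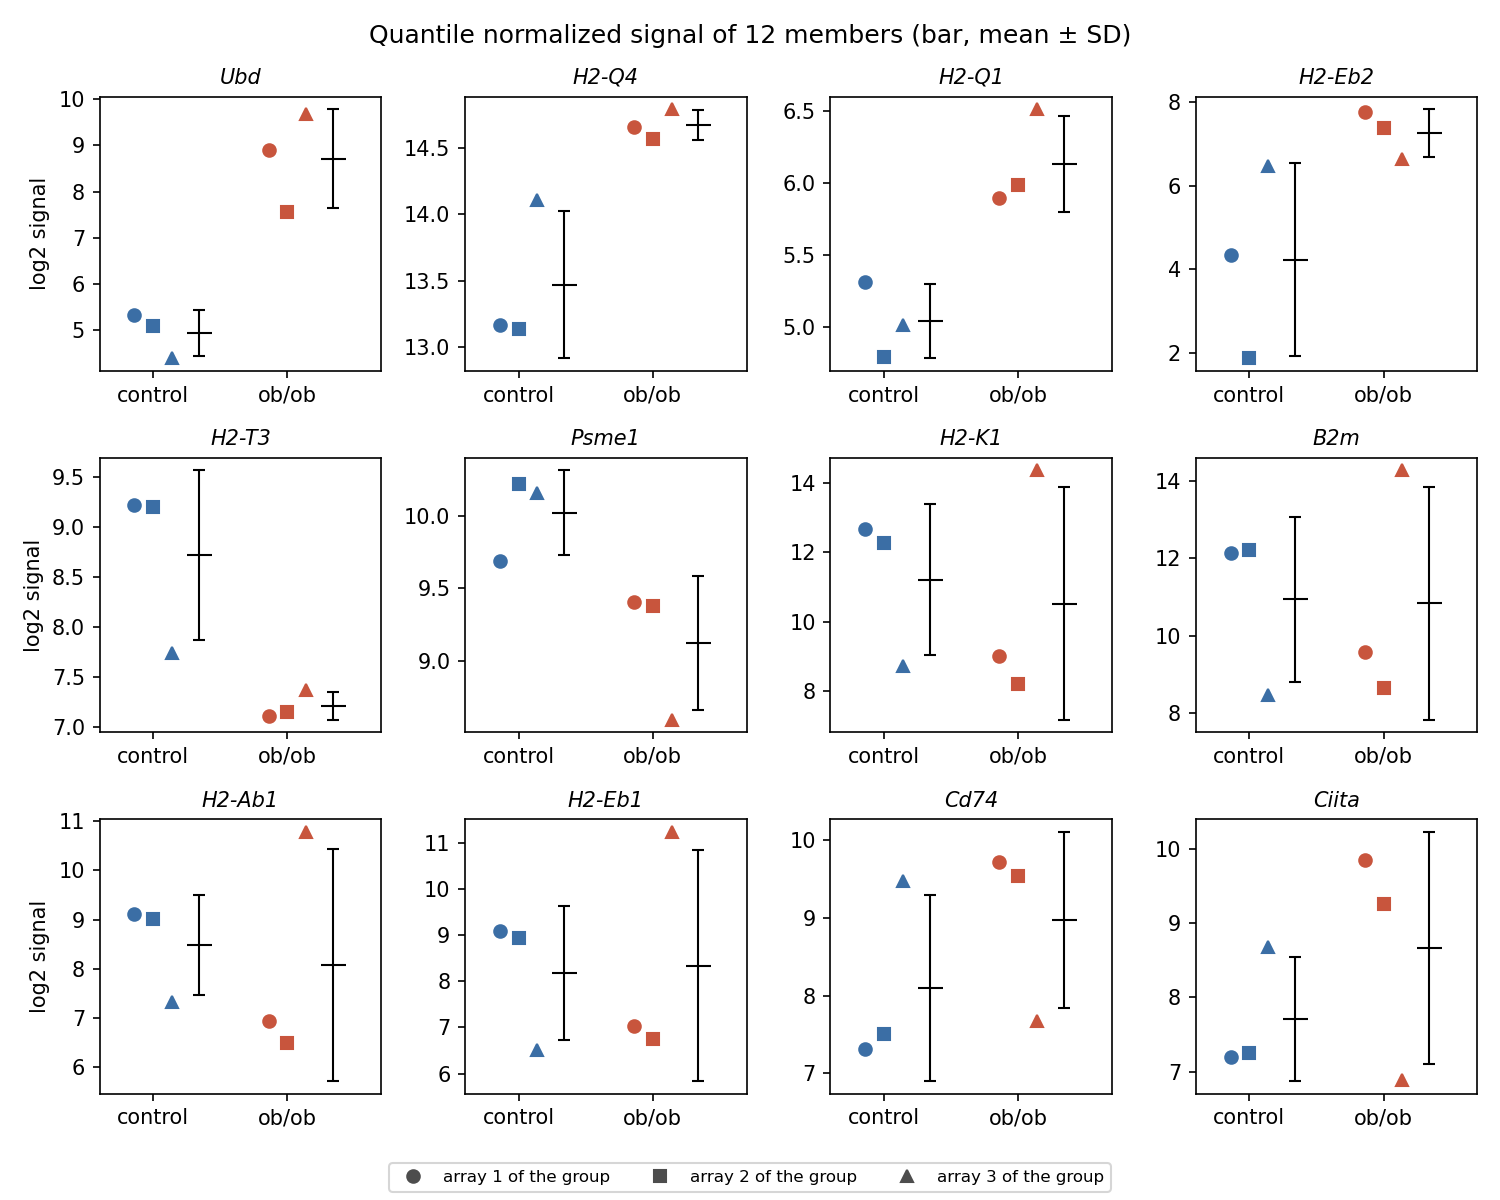
Log2 signal on each array for 12 members, with the 3 control arrays in blue and the 3 *ob/ob* arrays in red; the marker gives the replicate number and the black bar gives the mean ± SD (n = 3). *Ubd*, *H2-Q4*, *H2-Q1*, *H2-Eb2*, *H2-T3*, and *Psme1* do not overlap between groups, whereas for *H2-K1*, *B2m*, *H2-Ab1*, and *H2-Eb1* the triangle of each group lies apart from its circle and square, and for *Cd74* and *Ciita* the triangles lie apart in the opposite direction.

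The class I molecule itself behaved differently from these single genes. *B2m*, the light chain shared by class I molecules, had a log2 signal of 12.14, 12.21, 8.46 across controls 1 to 3 and 9.59, 8.64, 14.28 across *ob/ob* 1 to 3, a 56.5-fold span. *H2-K1*, a classical heavy chain, read 12.66, 12.27, 8.72 across controls 1 to 3 and 9.01, 8.20, 14.35 across *ob/ob* 1 to 3, a 70.9-fold span. For the second classical heavy chain, *H2-D1*, the values were 10.48, 10.17, 7.07 across controls 1 to 3 and 7.80, 7.22, 10.84 across *ob/ob* 1 to 3. Control 1, control 2, and *ob/ob* 3 were high for all 3 genes, and control 3, *ob/ob* 1, and *ob/ob* 2 were low. The group means therefore differed by far less than the spread: the log2 fold changes were −0.10 ± 1.72 (*B2m*), −0.70 ± 1.85 (*H2-K1*), and −0.62 ± 1.28 (*H2-D1*) (limma, adjusted p = 1.0 for each). The direction of *B2m*, *H2-K1*, and *H2-D1* turned in some of the fits that left out 1 array.

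Other class I heavy chains shared this order. *H2-T23* encodes Qa-1, which presents leader peptides of other class I chains to natural killer (NK) cell receptors. It read 8.43, 8.37, 7.94 across controls 1 to 3 and 7.71, 7.16, 8.66 across *ob/ob* 1 to 3, a narrower span, with a log2 fold change of −0.40 ± 0.47. *H2-M3*, which presents N-formylated peptides of bacteria and mitochondria, had a log2 signal of 7.56, 6.74, 3.74 across controls 1 to 3 and 3.85, 3.32, 7.94 across *ob/ob* 1 to 3 and was well above background on only 2 arrays of each group. Its log2 fold change was −0.98 ± 1.51. *H2-Q10*, which encodes a secreted class I molecule best known from liver, had the most negative log2 fold change of the class I genes, −1.93 ± 0.96 (limma, adjusted p = 1.0), while its second probe gave −0.17.

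Of the 23 class I heavy chains tested, 10 had control 1, control 2, and *ob/ob* 3 as their 3 highest arrays (*H2-D1*, *H2-K1*, *H2-K2*, *H2-M3*, *H2-M9*, *H2-Q10*, *H2-Q2*, *H2-Q6*, *H2-Q7*, and *H2-T23*). *H2-Q8*, *H2-M11*, and *H2-M10.3* had the reverse order, with control 3, *ob/ob* 1, and *ob/ob* 2 highest. The heavy chains not described singly had log2 fold changes from −0.87 (*H2-K2*, which RefSeq lists as a noncoding transcript) to 1.53 (*H2-M10.3*). Many class I genes are near copies of each other, and whether a probe also bound the transcript of a neighbor was not tested.

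Most genes of peptide supply followed *B2m*. *Tap2*, one subunit of the peptide transporter, had a log2 signal of 9.09, 8.71, 6.47 across controls 1 to 3 and 6.50, 6.42, 8.91 across *ob/ob* 1 to 3, and *Tapbp*, which encodes tapasin, the bridge between transporter and class I chain, read 7.32, 7.19, 5.74 across controls 1 to 3 and 5.40, 5.56, 7.44 across *ob/ob* 1 to 3. Both were high on control 1, control 2, and *ob/ob* 3, with log2 fold changes of −0.81 ± 0.96 and −0.61 ± 0.72. *Tap1*, the partner subunit of *Tap2*, went the other way, with 5.18, 5.30, 5.96 across controls 1 to 3 and 5.45, 5.50, 4.94 across *ob/ob* 1 to 3. Its span was 1.02 units and its log2 fold change was −0.18 ± 0.37.

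The immunoproteasome subunits stood in the same order as *Tap2*. *Psmb8* (LMP7) had a log2 signal of 7.19, 6.56, 4.71 across controls 1 to 3 and 5.29, 5.15, 7.16 across *ob/ob* 1 to 3. *Psmb9* (LMP2) read 6.999, 6.82, 6.02 across controls 1 to 3 and 5.86, 5.84, 6.54 across *ob/ob* 1 to 3. For *Psmb10* (MECL-1), the values were 9.07, 8.96, 7.30 across controls 1 to 3 and 7.71, 7.59, 8.53 across *ob/ob* 1 to 3. All 3 subunits were highest on control 1, control 2, and *ob/ob* 3, and the log2 fold changes were −0.28 ± 0.83, −0.53 ± 0.42, and −0.50 ± 0.59. The groups overlapped for each of them.

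Each immunoproteasome subunit takes the place of a standard one, and the 3 pairs were compared within arrays. The log2 ratio of *Psmb8* to *Psmb5* was lower in *ob/ob* by 0.08 and that of *Psmb9* to *Psmb6* was higher by 0.05 (exact permutation test, 2-sided, p = 0.9 and 1.0). Relative to the control mean, the ratio of *Psmb10* to *Psmb7* was 0.26, 0.74, −1.01 across controls 1 to 3 and −1.25, −1.08, −1.19 across *ob/ob* 1 to 3. The *ob/ob* arrays all lay below the controls, by a mean of 1.17 units (exact permutation test, p = 0.1, 0.3 adjusted over the 3 pairs), but control 3 was much nearer to them than to control 1 and 2.

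*Psme2*, the β subunit of PA28, had a log2 signal of 11.63, 11.48, 8.99 across controls 1 to 3 and 10.11, 9.20, 11.13 across *ob/ob* 1 to 3, in the order of the immunoproteasome genes and unlike its partner *Psme1*. Its log2 fold change was −0.56 ± 0.86, and its second probe gave 0.39. *Nlrc5*, which encodes the transcriptional activator of class I genes, read 8.79, 8.48, 5.76 across controls 1 to 3 and 5.38, 5.29, 9.17 across *ob/ob* 1 to 3, again high on control 1, control 2, and *ob/ob* 3. Its log2 fold change was −1.07 ± 1.30, whereas its second probe gave −0.0023. Over the 8 genes of peptide supply (*Tap1*, *Tap2*, *Tapbp*, *Psmb8*, *Psmb9*, *Psmb10*, *Psme1*, and *Psme2*), all 8 log2 fold changes were below 0, with a median of −0.54, compared with −0.085 over all genes, and only *Psme1* separated the groups.

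**Figure D3:**
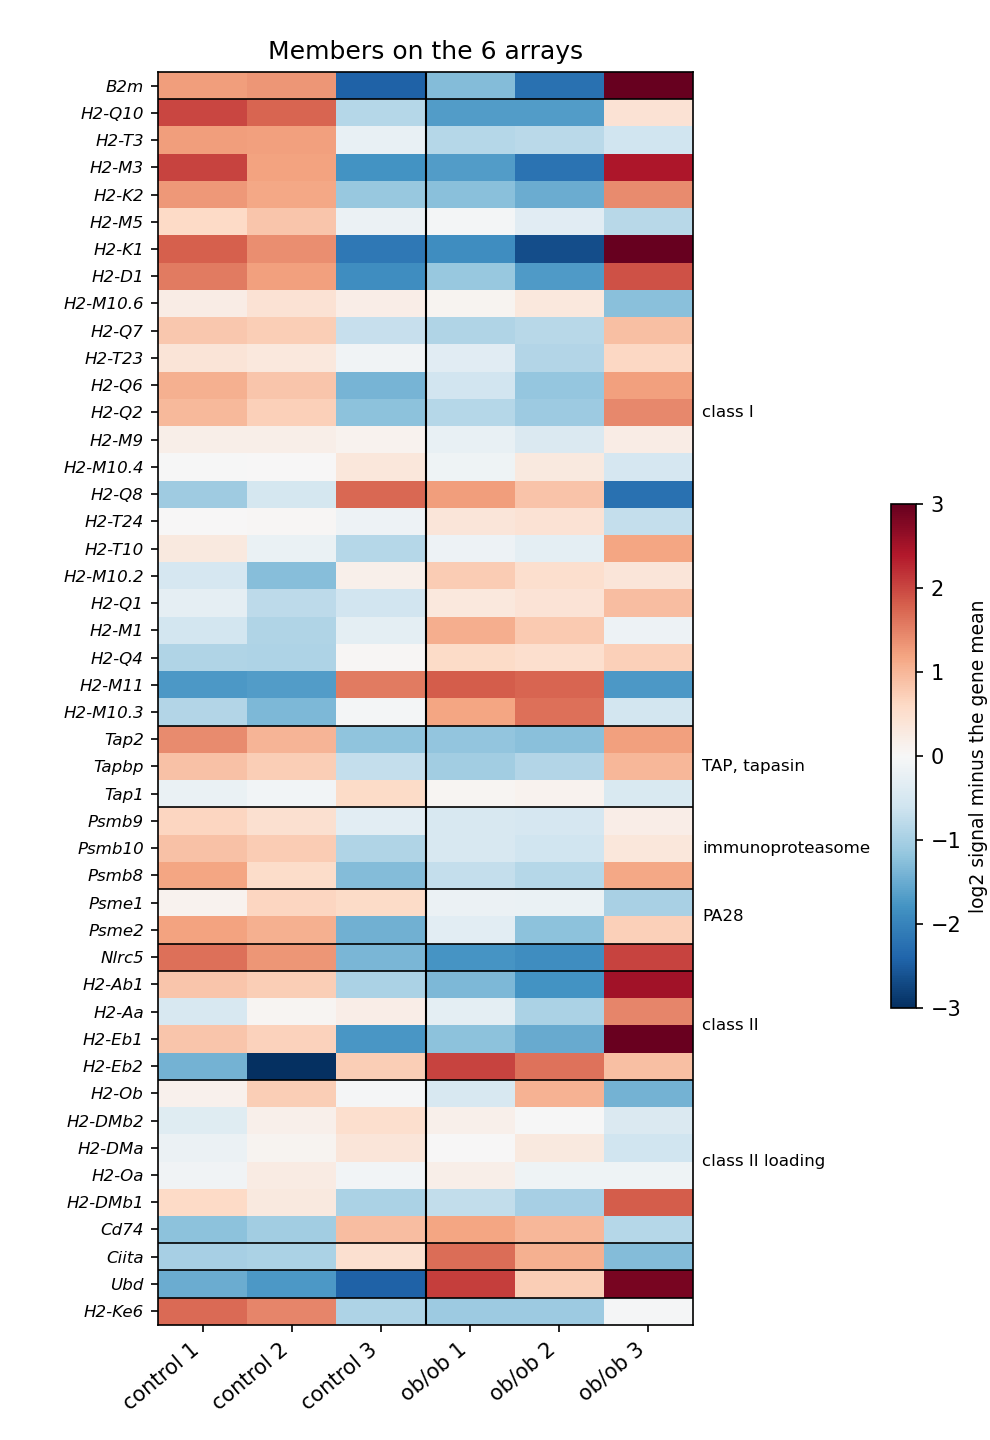
Heat map of the 46 members on the 6 arrays, as log2 signal minus the gene's mean over the arrays (red, above the mean; blue, below; the color scale stops at 3 units either way), with the groups divided by the vertical line. In 22 members, control 1, control 2, and *ob/ob* 3 are the 3 highest arrays, the reverse holds for 6 members (*Cd74*, *Ciita*, *H2-M10.3*, *H2-M11*, *H2-Q8*, and *Tap1*), and only *Ubd* and a few others change color at the line between the groups.

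Of the class II chains other than *H2-Eb2*, *H2-Ab1* and *H2-Eb1* varied over the arrays much as *B2m* did. *H2-Ab1*, the β chain of I-A, had a log2 signal of 9.11, 9.01, 7.31 across controls 1 to 3 and 6.93, 6.49, 10.78 across *ob/ob* 1 to 3. *H2-Eb1*, the β chain of I-E, read 9.09, 8.94, 6.52 across controls 1 to 3 and 7.03, 6.76, 11.23 across *ob/ob* 1 to 3. *H2-Aa*, the α chain of I-A, was well above background in all 3 controls but only 2 *ob/ob* samples, with 4.96, 5.49, 5.64 across controls 1 to 3 and 5.14, 4.48, 6.91 across *ob/ob* 1 to 3. *ob/ob* 3 was the highest array for all 3 chains. The log2 fold changes were −0.41 ± 1.21, 0.15 ± 1.36, and 0.14 ± 0.66, each smaller than its standard error.

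*Cd74* and *Ciita* ran against the chains. *Cd74*, the invariant chain, which escorts class II out of the endoplasmic reticulum, had a log2 signal of 7.31, 7.50, 9.47 across controls 1 to 3 and 9.71, 9.54, 7.67 across *ob/ob* 1 to 3. *Ciita*, the master regulator of class II transcription, read 7.20, 7.25, 8.67 across controls 1 to 3 and 9.85, 9.25, 6.89 across *ob/ob* 1 to 3. Both were highest on control 3, *ob/ob* 1, and *ob/ob* 2, the 3 arrays on which *H2-Ab1* and *H2-Eb1* were lowest. The log2 fold changes were 0.88 ± 0.81 and 0.96 ± 0.86 (limma, adjusted p = 1.0). *Cd74* and *Ciita* each had 1 probe on the array, so no second probe could be set beside it.

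The genes that edit the class II peptide spanned fewer units than *H2-Ab1* and *H2-Eb1*. The DM chains, which free the groove of the invariant chain fragment, gave 6.51, 6.78, 7.05 across controls 1 to 3 and 6.71, 6.99, 6.08 across *ob/ob* 1 to 3 for *H2-DMa*, and 6.54, 6.24, 4.99 across controls 1 to 3 and 5.21, 4.94, 7.76 across *ob/ob* 1 to 3 for *H2-DMb1*. *H2-DMb1* thus followed *H2-Ab1* and *H2-Eb1*, and *H2-DMa* did not. The DO chains, which restrain DM, gave 4.49, 4.83, 4.52 across controls 1 to 3 and 4.77, 4.46, 4.46 across *ob/ob* 1 to 3 for *H2-Oa*, and 8.58, 9.20, 8.43 across controls 1 to 3 and 7.98, 9.50, 7.03 across *ob/ob* 1 to 3 for *H2-Ob*. The log2 fold changes of these 4 genes and *H2-DMb2* lay between −0.56 and 0.047, each below its standard error.

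*H2-Ke6*, which has no part in presentation, read 9.72, 9.47, 7.08 across controls 1 to 3 and 6.92, 6.92, 7.97 across *ob/ob* 1 to 3, with a log2 fold change of −1.49 ± 0.78 (limma, adjusted p = 1.0).

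For the contrast of class I with class II, the median log2 fold change was −0.30 over 24 class I genes (heavy chains and *B2m*; 8 above 0, 16 below) and −0.0007 over 10 class II genes (chains, DM, DO, and *Cd74*; 5 above 0, 5 below). With 1 array omitted, the class I median ranged from −0.58 to 0.015, above 0 without control 1 or *ob/ob* 2, the class II median ranged from −0.076 to 0.47, and their difference ranged from −0.53 to 0.091, above 0 without control 1. The class I median of each array minus the class II median was 1.60, 1.72, 0.73 across controls 1 to 3 and 0.58, 0.57, 0.37 across *ob/ob* 1 to 3. The size of such a difference has no meaning of its own, since it sets probes against other probes, but its change between arrays can be read: the mean was 1.35 ± 0.54 (SD, n = 3) in control and 0.50 ± 0.12 in *ob/ob* iBAT, and the groups did not overlap. That separation rested on 2 class II genes. Without *Cd74* and *H2-Eb2*, the values were 1.60, 1.72, 1.15 across controls 1 to 3 and 1.40, 1.39, 0.37 across *ob/ob* 1 to 3, which overlapped. With *H2-M1*, *H2-M5*, *H2-M9*, *H2-M11*, and the *H2-M10* genes left out of class I as well, they overlapped too, at 1.74 to 2.88 in control and 1.60 to 2.41 in *ob/ob* iBAT.

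**Figure D4:**
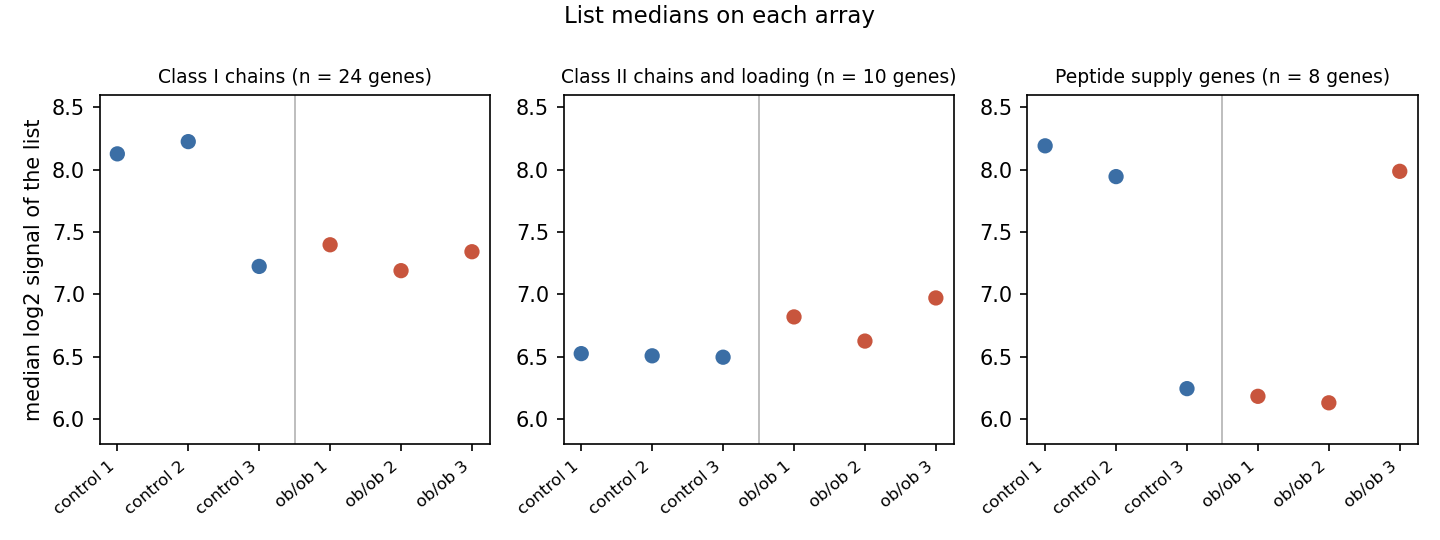
Median log2 signal on each array of 24 class I genes, 10 class II genes, and 8 peptide supply genes, with control arrays in blue and *ob/ob* arrays in red. The class I median is 8.13 and 8.23 on control 1 and 2 and between 7.19 and 7.40 on the other 4 arrays, the class II median lies between 6.50 and 6.97, and the peptide supply median is 7.95 to 8.19 on control 1, control 2, and *ob/ob* 3 and 6.13 to 6.24 on the other 3.

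Taking the 46 members as a whole, control 1, control 2, and *ob/ob* 3 were the 3 highest arrays for 22 members (47.8%), an order found in 30.1% of all genes. Control 3, *ob/ob* 1, and *ob/ob* 2 were the 3 highest for 6 members (13.0%; *Cd74*, *Ciita*, *H2-M10.3*, *H2-M11*, *H2-Q8*, and *Tap1*), compared with 31.5% of all genes. The median range over the 6 arrays was 2.45 log2 units for the members and 1.81 for all genes. These shares describe the list, and members that lie next to each other in the genome or share sequence are not independent of each other.

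Because control 3 and *ob/ob* 3 stood apart from their groups, the fit was also made without them, which leaves 2 arrays a group picked for their likeness. In that fit, 34 of the 46 members passed an adjusted p under 0.05, but so did 49.5% of all genes, and 13 members separated upward (28.3%, compared with 37.9% of all genes) and 25 downward (54.3%, compared with 36.9%). The log2 fold changes became −3.06 (*B2m*), −3.86 (*H2-K1*), −2.35 (*H2-Ab1*), −2.13 (*H2-Eb1*), 2.22 (*Cd74*), and 2.33 (*Ciita*), so that for *H2-Eb1* the direction turned. *Ubd* was at 3.01, *H2-Q4* at 1.46, and *H2-T3* at −2.08 without these arrays. The direction of these separated genes could not turn in this fit, because their groups did not overlap with the arrays included.

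The genes that surround the members in the same pathways were read as lists. Of 25 genes of antigen presentation outside the members, 21 were tested, and none had an unadjusted p under 0.05 in either direction or separated the groups (median log2 fold change 0.016). The largest value among them was that of *Ctss*, the protease that trims the invariant chain, with 7.55, 7.19, 6.15 across controls 1 to 3 and 8.26, 7.44, 13.14 across *ob/ob* 1 to 3. Most of its difference of 2.65 ± 1.48 lay in *ob/ob* 3. The summed linear signal of the 21 genes did not overlap between groups, at 10554.3 to 15042.5 in control and 17474.8 to 77389.8 in *ob/ob* iBAT. Most of it came from *Psme3* on *ob/ob* 1 and 2 (log2 signal 13.62 and 13.58, and 13.10 on control 3) and from *Ctsb* on *ob/ob* 3 (15.38). *Ctss*, *Psme3*, and *Ctsb* were singled out after their values were seen.

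Of 22 genes that control MHC and immunoproteasome transcription, 20 were tested, and 1 had an unadjusted p under 0.05. This was *Ifngr2*, a chain of the interferon-γ receptor, with 6.82, 6.32, 7.04 across controls 1 to 3 and 7.90, 7.71, 8.36 across *ob/ob* 1 to 3. It was higher on every *ob/ob* array (log2 fold change 1.26 ± 0.37; limma, adjusted p = 1.0). *Irf1*, which activates class I and immunoproteasome genes, read 11.12, 10.14, 7.40 across controls 1 to 3 and 7.15, 6.93, 9.90 across *ob/ob* 1 to 3, in the order of *B2m* and *Tap2*. *Ifng*, the cytokine itself, had a log2 signal of 5.29, 5.71, 8.51 across controls 1 to 3 and 7.56, 7.60, 5.86 across *ob/ob* 1 to 3, in the order of *Cd74* and *Ciita*.

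Markers of the cells that carry these molecules were set beside them. Of 10 macrophage markers tested, 1 had an unadjusted p under 0.05, *C1qa* (log2 fold change 0.90 ± 0.37), and *Fcgr1* also separated the groups upward. Of the 10, 7 had log2 fold changes above 0, with a median of 0.63 compared with −0.085 over all genes. The defining marker *Adgre1* was at −0.21 ± 0.46, or 0.41 with the mean of its probes. The summed linear signal of the macrophage list ranged from 4633 to 15574 in control and from 4261 to 5473 in *ob/ob* iBAT, and most of its highest value came from *Itgam*, with a log2 signal of 12.51, 13.82, 11.43 across controls 1 to 3 and 11.67, 11.54, 10.25 across *ob/ob* 1 to 3. Of 7 dendritic cell markers tested, 2 had log2 fold changes above 0 (median −0.15), *Xcr1* separated downward, and *Itgax* was at 0.56 ± 0.67; the summed signal ranged from 745.5 to 1129 in control and from 528.2 to 965.0 in *ob/ob* iBAT. Among 7 B cell markers, 3 were above 0 (median −0.11), and *Ms4a1* was higher in *ob/ob* iBAT (log2 fold change 1.16 ± 0.36; limma, adjusted p = 1.0), with summed signals of 1685 to 2364 and 1168 to 2535. Among 9 T and NK cell markers, 4 were above 0 (median −0.064), and *Cd8b1* separated upward and *Cd3e* and *Cd8a* downward, with summed signals of 2811 to 6440 and 1676 to 7280. No marker tested was at 0, and the summed signal of each of these 4 lists overlapped between groups.

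Markers of other cells of the tissue were compared in the same way. Endothelial cells carry class I. The summed signal of 5 endothelial markers did not overlap between groups, at 6439 to 9882 in control and 3589 to 6333 in *ob/ob* iBAT. Most of this signal on control 3, *ob/ob* 1, and *ob/ob* 2 came from *Pecam1* (log2 signal 12.49, 12.44, and 12.58), which was highest on these arrays. The other 4 endothelial markers were highest on control 1, control 2, and *ob/ob* 3. Their log2 fold changes were −3.44 to −0.98, compared with 0.048 for *Pecam1* (median of the list −1.17). Of 8 brown adipocyte markers, all had log2 fold changes below 0 (median −2.41), *Ppargc1a* and *Elovl3* separated the groups, and the summed signal was 55204 to 90805 on control 1 and 2 but 5944 on control 3, compared with 3959 to 12251 in *ob/ob* iBAT. *Ucp1* had a log2 signal of 13.05, 11.72, 9.48 across controls 1 to 3 and 8.93, 9.12, 10.03 across *ob/ob* 1 to 3. *Adipoq*, a marker of all adipocytes, read 11.60, 11.13, 8.63 across controls 1 to 3 and 9.53, 8.71, 13.11 across *ob/ob* 1 to 3, in the order of *B2m*. Skeletal muscle markers had summed signals of 27762 and 38280 on control 1 and 2 and 49878 on *ob/ob* 3, compared with 466.6 to 3189 on the other 3. Most of the signal on the 3 high arrays came from *Myh4* (log2 signal 14.44, 14.96, and 14.25), and on *ob/ob* 3 also from *Myh1* (14.64). Of the 6 muscle markers, 5 had log2 fold changes below 0. *Mylpf* went the other way and separated the groups upward (log2 fold change 1.19 ± 0.44; limma, unadjusted p = 0.034), with only 2 control arrays well above background. The part of cell makeup in the values of the MHC genes was not tested.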

How the data were processed

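The 6 arrays hold 1 iBAT sample each. Per the labels, Agilent Feature Extraction 11.0.1.1 read the spots, and the authors deposited its intensity of every spot, background corrected but not scaled between arrays. A second deposited file gives the authors' own log2 values after quantile normalization (common median 6.0045, correlation with the scanner intensities 0.987 to 0.998), used as an alternative.

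Outlier spots (153 to 227 of 43020) were left out, none was saturated, and 83.5% to 89.9% lay well above background. A probe's log2 intensities were averaged over its spots and quantile normalized. RefSeq accessions named 27234 of 28684 probes. limma 3.58.1 in R 4.3.3 compared the groups for 35448 probes that at least 3 of the 6 arrays detected, with p values adjusted by Benjamini-Hochberg over these probes. The brightest probe stood for a gene. Of 11 second probes of members, 9 were tested, and 7 of these had the direction of the first. The second probes of *H2-M10.3* and *H2-Ob* were detected on too few arrays to be tested. Single values were also compared with a 2-sided exact permutation test. Promoter windows and motifs came from RefSeq sequence (GRCm38.p6). Groups and replicate numbers are those of the labels. The code was tested on simulated data. Python 3.11.15, pandas 2.3.3, numpy 2.4.6, scipy 1.17.1, and matplotlib 3.10.9 were used.

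The members and the gene lists were chosen with earlier results of these data known. Values per array are given for the main genes of each role and for any member with an unadjusted p under 0.05 or no overlap between groups, and other members by range. From the lists, genes with such values, a few defining markers, and genes that made up most of a summed signal are named. Arrays carry no counts, so their number limits the precision.

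The 17 alternatives were scaling to the 75th percentile, normexp (offset 50) on the median spot signal, the authors' values, other detection filters (none, or all 6 arrays), the methods' t-test, an intensity trend with robust estimation, a block for the replicate number, a block for the scan, each of the 6 arrays omitted singly, control 3 and *ob/ob* 3 omitted together, and the mean of a gene's probes.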

Additional observations from a re-analysis of the deposited data

How the results depend on the processing

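Of the 46 members tested, 27 kept their direction in every alternative and 19 turned in some. The 27 include the separated genes, whose direction could not turn when arrays were omitted. Relative to 6 members higher and 1 lower at an unadjusted p under 0.05, the counts were 2 and 0 with scaling to the 75th percentile, 5 and 2 with normexp, 3 and 2 with the methods' t-test, 1 and 0 with the scan as a block, and 11 and 23 without both control 3 and *ob/ob* 3 (23.9% of members for the first, where 25.5% of all genes were higher and 29.8% lower). Of all genes, 0.421% were higher and 1.0% lower with the 75th percentile, 1.94% and 2.13% with normexp, 2.17% and 2.14% with the methods' t-test, and 0.105% and 0.447% with the scan as a block. Relative to 6 separated upward and 2 downward, they were 2 and 5 with the 75th percentile, 5 and 4 with normexp, and 13 and 25 without control 3 and *ob/ob* 3. The shares of all genes were 2.33% and 4.41%, 3.66% and 4.21%, and 37.9% and 36.9% in these settings, so that without the 2 arrays the share of members separated upward (28.3%) was below that of all genes, the reverse of the order over all 6 arrays. No member passed an adjusted p under 0.05 except in that last fit, where 34 did (49.5% of all genes). The median of all genes was −0.085, and with the 75th percentile it was −0.30, so changes in that setting are read against a shift of that size. The cause of these differences was not tested.

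With the replicate number as a block, 1 member was higher (2.17%) and 0 lower at an unadjusted p under 0.05, and no member passed an adjusted p. Of all genes, 0.379% were higher and 0.689% lower in that fit. The numbers do not pair the samples: deviations from the group means correlated at −0.78, −0.66, and −0.85 between same-numbered arrays.

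With 1 array omitted, the members higher at an unadjusted p under 0.05 numbered 1 (without control 2) to 7 (without control 3) and those lower 0 to 4. Of all genes, 0.289% were higher and 0.531% lower without control 2, and 5.36% and 4.19% without control 3. In these fits, 6 to 11 members separated upward and 2 to 12 downward. Members that separate over all arrays stay separated when 1 is omitted, so the counts could not fall below 6 and 2. Of all genes, 4.04% (without control 2) to 14.9% (without *ob/ob* 3) separated upward, and 4.63% to 14.7% downward in the same fits. The counts of separated members were highest without *ob/ob* 3 (23.9% and 26.1%, compared with 14.9% and 14.7% of all genes). No member passed an adjusted p with 1 array omitted. Over these fits and the one without control 3 and *ob/ob* 3, the class I median ranged from −0.70 to 0.015, the class II median from −0.0965 to 0.47, the class I minus class II value from −0.61 to 0.091, and the peptide supply median from −1.51 to −0.32. Directions turned in some of these fits for *Adgre1* (−0.47 to 0.36), *Adipoq* (−2.24 to 0.87), *B2m* (−3.06 to 0.99), *H2-Aa* (−0.56 to 0.66), *H2-Ab1* (−2.35 to 0.38), *H2-D1* (−2.81 to 0.081), *H2-DMa* (−0.39 to 0.21), *H2-DMb1* (−1.31 to 0.56), *H2-DMb2* (−0.42 to 0.17), *H2-Eb1* (−2.13 to 0.94), *H2-K1* (−3.86 to 0.46), *H2-M10.4* (−0.42 to 0.083), *H2-Oa* (−0.15 to 0.059), *H2-Ob* (−1.23 to 0.0031), *H2-Q2* (−1.82 to 0.14), *H2-Q6* (−1.80 to 0.17), *H2-Q8* (−0.73 to 1.85), *H2-T10* (−0.28 to 0.76), *H2-T24* (−0.15 to 0.43), *Ifng* (−0.11 to 2.08), *Itgax* (−0.18 to 0.998), *Psmb5* (−1.07 to 0.074), *Psmb6* (−2.38 to 0.0085), *Psmb8* (−1.65 to 0.24), and *Tap1* (−0.33 to 0.24).

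Other log2 fold changes that turned were, with the scan as a block, *H2-Aa* (−0.17), *H2-DMb1* (−0.56), *H2-DMb2* (0.080), *H2-Eb1* (−0.78), *H2-Oa* (0.27), *H2-Q8* (0.92), *Adgre1* (0.085), and *Itgax* (−0.37); with the mean of a gene's probes, *H2-T24* (−0.060) and *Adgre1* (0.41); and with the authors' values, *Adipoq* (0.018). *H2-Eb2*, *H2-M10.2*, *H2-M10.6*, *H2-M3*, and *H2-Aa* gave no value with detection on all 6 arrays.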
